A study of Homo sapiens with 6 samples.

Results

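The collagen, laminin and integrin genes were taken from the annotated protein-coding genes by symbol: COL followed by a number, A and a number for collagen chains, LAMA, LAMB or LAMC for laminin chains, ITGA for integrin α subunits and ITGB for integrin β subunits. The rule found 82 of the 62700 genes listed in each library, namely 44 collagen, 12 laminin, 18 integrin α and 8 integrin β genes. They were read in RNA–Seq libraries of SK-Hep1 cells, an established line from a liver tumour that the study describes as endothelial-derived. The 3 control libraries are titled shControl and carry the genotype label WT, and the 3 knockdown libraries are titled shRAB30-DT and labelled as knockdown of the long non-coding RNA RAB30-DT. All 6 libraries come from this single cell line, and the study's methods describe stable lines made with pLKO.1 lentivirus and puromycin selection, so vector and selection are part of the model. The labels give no time point, do not name the shRNA and do not say whether replicates were separate cultures, so p-values measure only the spread between these libraries.

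Collagens are triple-helical matrix proteins built from 3 α chains. Fibrillar types form the fibres of connective tissue, type IV forms the network of basement membranes, and other types sit on fibrils, in anchoring structures or in the plasma membrane. Laminins are heterotrimers of an α, a β and a γ chain that polymerize in basement membranes. Integrins are heterodimers of an α and a β subunit that span the plasma membrane and link such ligands to the actin cytoskeleton, so a receptor can be made only where both subunits are present. In normal liver the space beside the hepatocytes holds a sparse matrix, and liver tumours are known for laying down more laminin and type IV collagen.

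Levels are given as TPM, transcript abundances scaled for transcript length and to the same total in every library, so levels of different genes can be set side by side. The unit does not keep how many reads were sequenced. Sequencing depth is therefore not known here, and errors are the spread between libraries. Each library listed 20127 to 21675 genes above 0, and the Pearson correlation between libraries across genes was 0.914 to 0.971. RAB30-DT itself was at 18.2, 11.5 and 13.9 TPM in control replicates 1, 2 and 3 and at 11.9, 10.9 and 6.50 TPM in knockdown replicates 1, 2 and 3. The groups overlapped, the log2 fold change was −0.55 (SE 0.27, limma adjusted p = 0.355), and an exact two-sided permutation test gave p = 0.2, where 0.1 is the smallest that 3 against 3 libraries allow. Control and knockdown below follow the labels. The libraries also differed in a trend of the values with the GC content of the exons. As a description, Spearman's rho across genes was −0.606, 0.294 and 0.489 in control and −0.524, 0.0162 and 0.335 in knockdown replicates 1, 2 and 3. Markers of the named cell types were checked in all libraries. Of 7 endothelial markers none reached the filter of a mean of at least 1 TPM, 1 was at 0 in all libraries, and their summed level was 0.29 to 3.21 TPM in control and 0.59 to 1.46 TPM in knockdown libraries. The 6 mesenchymal markers all passed the filter, with sums of 5424 to 5638 TPM in control and 5720 to 6162 TPM in knockdown libraries. They went both ways, with VIM higher and THY1, PDGFRB and SPARC lower in every knockdown library, and a median log2 fold change of −0.12. Of 7 hepatocyte markers SERPINA1 alone passed it and 5 were at 0 in all libraries, and of 4 platelet markers none passed it and 3 were at 0. The epithelial keratins KRT8 (log2 −1.18, limma adjusted p = 0.0354) and KRT18 (log2 −1.03, limma adjusted p = 0.0292) fell in knockdown cells, called in 12 and 13 of 20 fits. Both calls were lost without control replicate 2 or any single knockdown replicate (adjusted p up to 0.153), with no filter, with median-of-ratios scaling and with eBayes without trend, and that of KRT8 also with quantile normalization. Of 4 epithelial markers KRT8 and KRT18 alone passed the filter, and 1 was at 0 in all libraries. The summed epithelial markers, carried by these keratins, were at 2224 to 3483 TPM in control against 1193 to 1344 TPM in knockdown libraries. The part of these differences in the results below was not tested, and in bulk libraries a change in the share of some cells and a change in RNA per cell cannot be told apart.

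Of the 82 genes, 39 had a mean of at least 1 TPM and were tested: 17 collagens, 8 laminins, 9 integrin α and 5 integrin β subunits. The fold change was the difference of log2(TPM + 1), knockdown minus control, so it understates changes of low genes. A single gene, the β2 integrin ITGB2, passed the test at an adjusted p under 0.05 (limma, Benjamini–Hochberg over 14020 genes), or 1 of 39, beside 1.04% of all tested genes. That gene was higher, beside 0.371% of all genes called higher, and 0 members were called lower, beside 0.67%. The unadjusted p was under 0.05 for 10 of 39 genes (25.6%), beside 16.8% of all genes, with 4 higher, beside 7.06%, and 6 lower, beside 9.7%. With the GC trend removed 5 of 39 genes were called, beside 8.5% of all genes, with the replicate number as a block 3, beside 6.14%, and with library weights estimated by arrayWeights 12, beside 23.0%. The 3 knockdown libraries lay all above or all below the 3 control libraries for 12 of 39 genes (30.8%), beside 23.3% of all genes. Of these, 6 were higher in knockdown cells, beside 9.89% of all genes, and 6 were lower, beside 13.4%. The higher genes included COL13A1, LAMB2, ITGA5, ITGA10 and ITGB2, and the lower ones were COL4A2, COL18A1, COL12A1, LAMA5, LAMC3 and ITGA4. Every family except the integrin β subunits thus held genes on both sides, and the median log2 fold change was −0.02 for collagens, 0.30 for laminins, 0.11 for integrin α and −0.33 for integrin β subunits, beside −0.04 for all genes. The collagen median was above 0 with median-of-ratios scaling (0.01) and with the GC trend removed (0.08), and the integrin α median was −0.19 without control replicate 3. The integrin β median was −0.07 without control replicate 2 and −0.51 without control replicate 3.

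**Figure D1:**
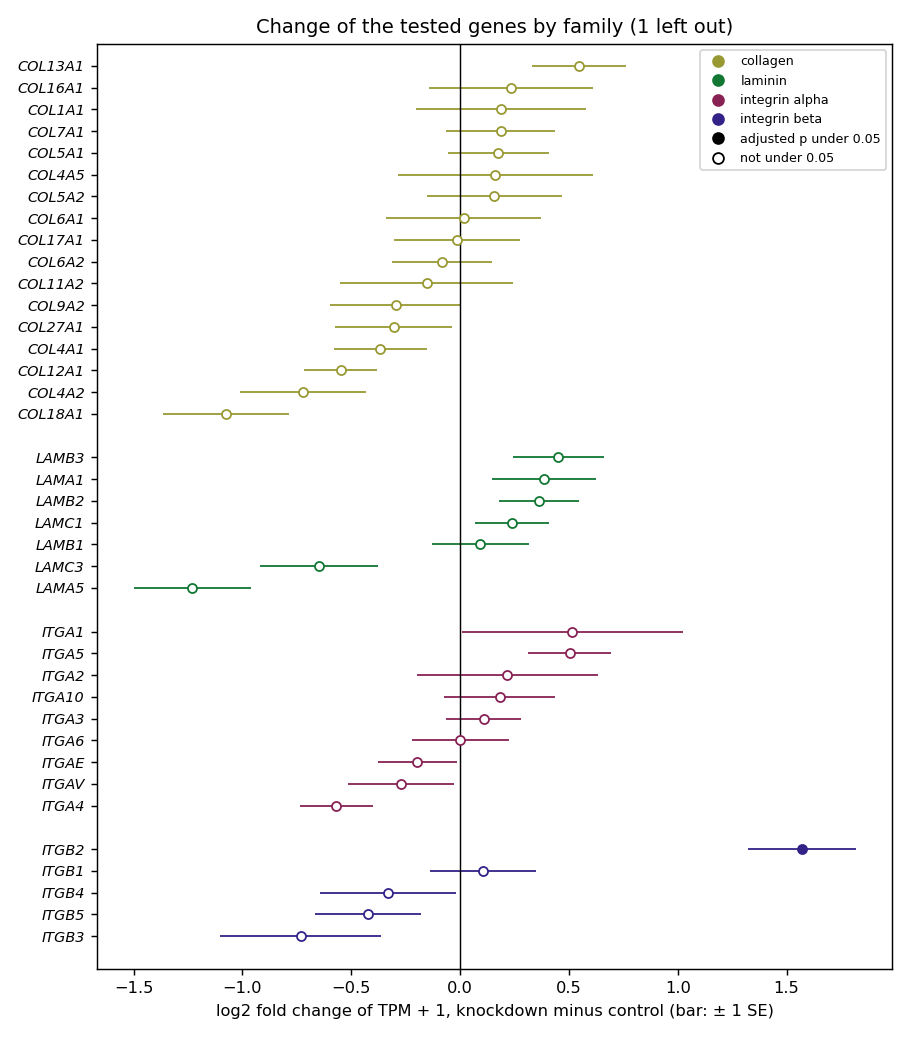
Log2 fold change of TPM + 1, knockdown minus control, on the horizontal axis for the tested genes, with 1 of the 39 left out, grouped by family, with bars of 1 standard error from limma on either side and n = 3 libraries per group. The filled point is ITGB2 at 1.57, and LAMA5 at −1.23 and COL18A1 at −1.08 lie farthest on the other side with open points, which mark genes that did not pass the test.

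Summed over each family, collagen transcripts were at 203, 262 and 293 TPM in control and at 179, 196 and 192 TPM in knockdown replicates 1, 2 and 3. The knockdown sums lay below all control sums, with a mean of 189 ± 8.92 against 253 ± 45.9 TPM (SD, n = 3 each, exact two-sided permutation p = 0.1). Most of this fall lay in COL4A2, at means of 85.1 and 48.3 TPM in control and knockdown libraries, and COL18A1, at 36.2 and 16.4 TPM. COL4A2 stood at 127 TPM in control replicate 3. Of the 17 tested collagens, 8 had a log2 fold change above 0 and 9 below, so the family did not fall as a whole. Laminin transcripts were at 543, 559 and 532 TPM in control and at 658, 671 and 589 TPM in knockdown libraries, so here the knockdown sums lay above, with a mean of 639 ± 43.9 against 545 ± 13.4 TPM (SD, n = 3 each, exact permutation p = 0.1). The integrin sums overlapped, at 544 ± 73.3 and 555 ± 25.9 TPM for α subunits and at 388 ± 97.2 and 384 ± 41.0 TPM for β subunits (control and knockdown, SD, n = 3 each, exact permutation p = 0.8 and 1). A few genes carried each family. COL4A2, COL6A2 and COL18A1 held 55.0% of the mean collagen sum, LAMB1, LAMC1 and LAMB2 75.0% of the laminin sum, ITGA3, ITGA6 and ITGAV 82.9% of the α sum, and ITGB1, ITGB5 and ITGB4 97.4% of the β sum.

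**Figure D2:**
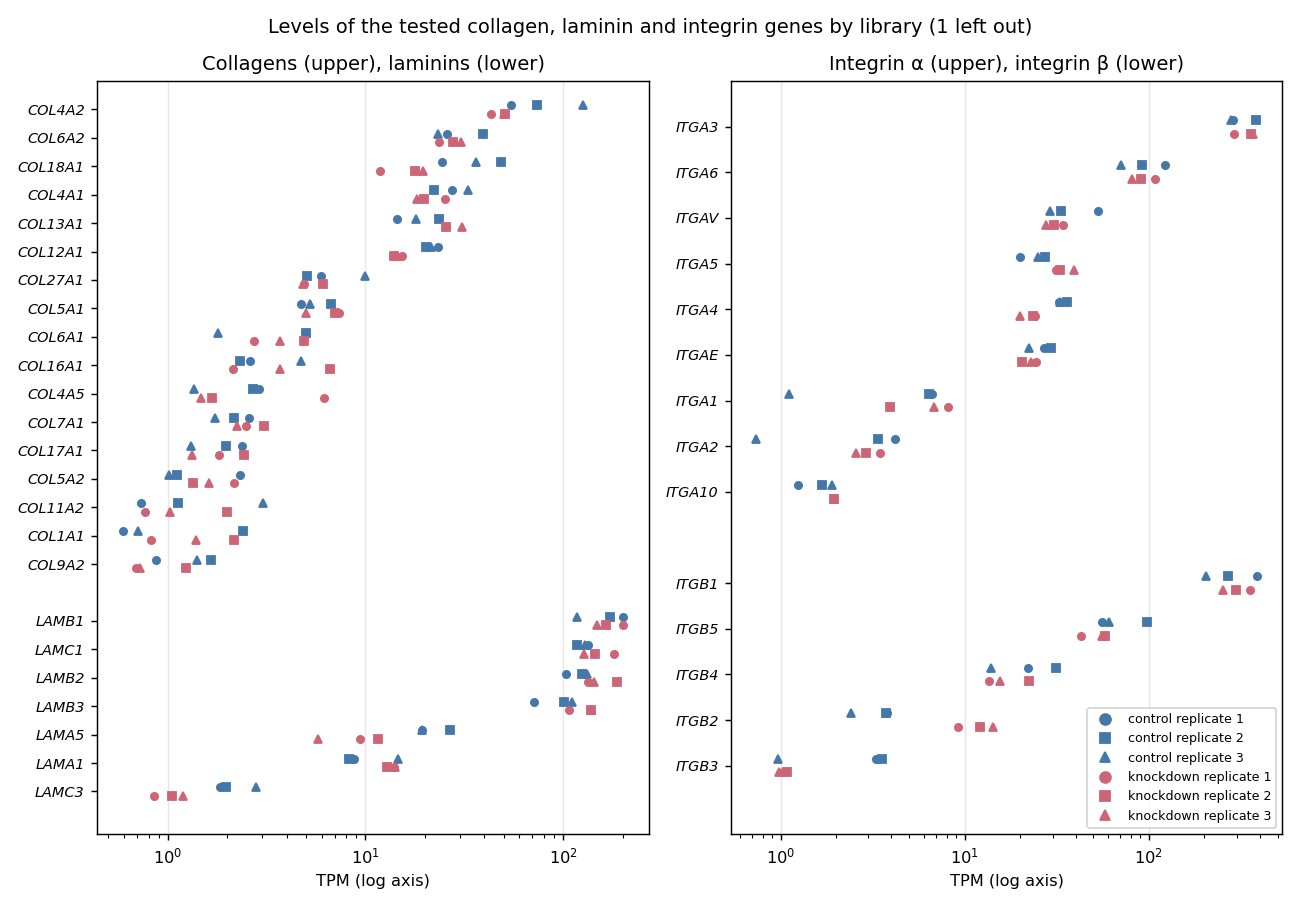
TPM on a log axis of the tested genes in the 6 libraries, with 1 of the 39 left out, with a row per gene, control libraries in blue and knockdown libraries in red, and a marker shape per replicate number. ITGA3 and ITGB1 were the most abundant, at means of 327 and 294 TPM, and among the genes whose colours separate are LAMA5, COL18A1, COL12A1 and ITGA4 to the left and ITGB2 and ITGA5 to the right.

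The promoters of 5 genes that the comparisons turn on are shown here, and a link between their sequence and their change was not tested. LAMA5, COL18A1 and COL4A2 are the genes of these families with the largest negative fold changes among those lower in every knockdown library. The fibronectin receptor subunits ITGA4 and ITGA5 are a pair on opposite sides. Each window is the RefSeq sequence from 250 bases before to 50 bases after the annotated start, 5′ to 3′ on the gene's own strand, in build GRCh38.p14. Capitals mark the GC box GGGCGG on either strand and, in ITGA5, the AP-1 element TGANTCA.
LAMA5 (minus strand, chr20:62367263-62367562): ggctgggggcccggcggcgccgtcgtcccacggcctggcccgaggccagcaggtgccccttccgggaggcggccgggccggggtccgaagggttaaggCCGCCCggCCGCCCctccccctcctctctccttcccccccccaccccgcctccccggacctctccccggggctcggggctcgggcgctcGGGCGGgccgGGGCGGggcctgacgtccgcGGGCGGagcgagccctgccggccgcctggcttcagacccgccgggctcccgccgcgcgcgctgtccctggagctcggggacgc
COL18A1 (plus strand, chr21:45404915-45405214): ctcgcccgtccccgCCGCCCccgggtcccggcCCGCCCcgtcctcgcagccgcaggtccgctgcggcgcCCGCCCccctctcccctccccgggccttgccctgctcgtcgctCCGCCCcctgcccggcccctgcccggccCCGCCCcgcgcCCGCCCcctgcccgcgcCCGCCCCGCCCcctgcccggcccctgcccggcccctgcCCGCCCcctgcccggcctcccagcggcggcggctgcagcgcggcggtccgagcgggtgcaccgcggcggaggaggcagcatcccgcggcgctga
COL4A2 (plus strand, chr13:110307034-110307333): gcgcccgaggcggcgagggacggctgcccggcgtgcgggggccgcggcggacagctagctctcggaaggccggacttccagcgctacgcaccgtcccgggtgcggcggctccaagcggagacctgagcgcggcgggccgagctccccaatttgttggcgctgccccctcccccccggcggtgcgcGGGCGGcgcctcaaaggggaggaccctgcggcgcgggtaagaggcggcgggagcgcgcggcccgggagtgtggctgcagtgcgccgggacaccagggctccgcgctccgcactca
ITGA4 (plus strand, chr2:181457136-181457435): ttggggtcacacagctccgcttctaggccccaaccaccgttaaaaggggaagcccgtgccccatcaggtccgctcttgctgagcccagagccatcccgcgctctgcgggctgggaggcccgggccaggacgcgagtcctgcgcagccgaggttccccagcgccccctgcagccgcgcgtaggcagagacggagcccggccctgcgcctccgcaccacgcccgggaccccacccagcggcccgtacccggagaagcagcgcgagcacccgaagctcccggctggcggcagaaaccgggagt
ITGA5 (minus strand, chr12:54419217-54419516): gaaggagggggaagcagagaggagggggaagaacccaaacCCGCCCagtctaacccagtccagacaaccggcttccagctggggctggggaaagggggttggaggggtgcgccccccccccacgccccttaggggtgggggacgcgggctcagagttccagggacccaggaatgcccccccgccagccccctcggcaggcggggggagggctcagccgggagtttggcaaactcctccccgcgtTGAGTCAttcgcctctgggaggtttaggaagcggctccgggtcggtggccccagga

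The COL18A1 window held 9 GC boxes, the LAMA5 window 5, those of COL4A2 and ITGA5 1 each, and that of ITGA4 none. Of the 82 genes, 58 were matched by symbol in the RefSeq table, 29 of them tested, and ITGB2 was among the others. A GC box on either strand was found in 20 of the 29 tested genes (69.0%), and in 32 of all 58 matched genes (55.2%), beside 44.6% of all 27305 windows of this length, which were not chosen by expression. The AP-1 element was found in ITGA5 alone of the 29, beside 7.8% of all windows. The hypoxia response element cores ACGTG and GCGTG, which share the letters CGTG and were counted separately on both strands, were found in 3 and 11 of the 29, beside 21.6% and 36.3%, and the TATA box TATAAA in 5 of 29, beside 12.0%. A GC box can run into a following GCGTG. COL4A1 and COL4A2 face away from each other on chromosome 13, and their windows overlap by 226 bases, so most of the COL4A2 sequence is also, on the other strand, that of COL4A1. Such matches describe the letters in these windows.

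Among the collagens, COL18A1 and COL4A2 had the largest negative fold changes, and neither passed the test. COL18A1 (ENSG00000182871.16, chromosome 21, plus strand, 45405165 to 45513720 on hg38), the multiplexin collagen from which endostatin is cut, was at 24.3, 48.3 and 36.2 TPM in control and at 11.9, 17.7 and 19.5 TPM in knockdown replicates 1, 2 and 3. All knockdown values lay below all control values, at a mean of 16.4 ± 3.99 against 36.2 ± 12.0 TPM (SD, n = 3 each). The log2 fold change was −1.08 (SE 0.29, limma adjusted p = 0.123), and the adjusted p was 0.0223 with the GC trend removed and 0.0341 without control replicate 1. Over all alternatives it ranged from 0.00323 to 0.361, under 0.05 in 5 of 20 fits. Its exons were 66.8% GC, and it overlaps the folate carrier gene SLC19A1 on the other strand, which was at means of 40.5 and 27.6 TPM in control and knockdown libraries. The library preparation in the labels marks no strand, so any reads from the overlap cannot be told apart. Overlaps here are those of whole gene spans, and how many reads they share is not known.

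COL4A2 and COL4A1 encode the paired α2 and α1 chains of the common type IV network. COL4A2 was at 54.4, 74.1 and 127 TPM in control and at 43.4, 51.1 and 50.4 TPM in knockdown libraries. The knockdown values lay below all control values, of which replicate 3 stood highest, and the log2 fold change was −0.72 (SE 0.29, limma adjusted p = 0.265), between −0.99 and −0.39 with single libraries left out. COL4A1 was at 27.5, 22.3 and 32.9 TPM in control and at 25.4, 19.8 and 18.1 TPM in knockdown libraries, which overlapped, with a log2 fold change of −0.37. The ratio of COL4A2 to COL4A1 was 3.05 ± 0.971 in control and 2.36 ± 0.571 in knockdown cells (SD, n = 3 each) and overlapped as well (exact permutation p = 0.4). COL4A1 and COL4A2 overlap each other on opposite strands, so reads from the overlap cannot be told apart here either. As the trimer needs both chains, its lower chain was COL4A1 in every library, at 27.6 ± 5.31 and 21.1 ± 3.80 TPM (SD, n = 3 each, exact permutation p = 0.2). The other type IV chains were far lower. COL4A5 was at 1.35 to 6.19 TPM with overlap, and COL4A3, COL4A4 and COL4A6, its partners in the specialised networks, were not tested, at means of 0.055, 0.39 and 0.153 TPM.

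COL12A1, a fibril-associated collagen that carries no fibril of its own, had a small spread in both groups. It was at 23.2, 20.3 and 21.6 TPM in control and at 15.2, 13.9 and 14.4 TPM in knockdown libraries, all lower, with a log2 fold change of −0.55 (SE 0.17, limma adjusted p = 0.16). COL13A1, a transmembrane collagen of cell contacts, lay on the other side, at 14.4, 23.4 and 18.1 TPM in control and at 25.5, 25.6 and 30.8 TPM in knockdown libraries. All knockdown values were above the control values, and the log2 fold change was 0.54 (SE 0.22, limma adjusted p = 0.258). Shares within the collagen sum of each library do not move with scaling between libraries. COL13A1 took 7.11, 8.94 and 6.18% in control and 14.2, 13.1 and 16.0% in knockdown libraries. As COL13A1 was higher and the sum lower in every knockdown library, this share had to separate, and no test of it is given. COL18A1 took 14.2 ± 3.63% and 8.60 ± 1.79% (SD, n = 3 each), without overlap (exact permutation p = 0.1).

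The fibrillar and beaded collagens showed no separated groups. Of 11 fibrillar genes 5 were tested, with log2 fold changes from −0.31 to 0.19. The major connective tissue chains were low. COL1A1 was at 0.59 to 2.41 TPM, its partner COL1A2 at most at 0.12 TPM, and COL3A1 at most at 0.24 TPM. For type V, COL5A1 was at 4.74 to 7.34 TPM and COL5A2 at 1.01 to 2.31 TPM, so that COL5A2 set the lower chain. For type VI, which forms beaded filaments from 3 chains, COL6A2 was at 23.4 to 39.2 TPM and COL6A1 at 1.79 to 4.98 TPM, while COL6A3 was not tested at a mean of 0.272 TPM. Of 9 collagen trimers with different chains, 2 had every chain tested, type IV α1α2 and type V. In all, 4 of the 17 tested collagens (23.5%) had an unadjusted p under 0.05, beside 16.8% of all genes, and 0 passed the limma test after adjustment.

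Among the laminins, the α5 chain lay lower in knockdown cells and the summed β chains higher. LAMA5 (ENSG00000130702.15, chromosome 20, minus strand, 62307955 to 62367312 on hg38), the α chain of laminins α5β1γ1 and α5β2γ1, to which the integrins α3β1 and α6β1 bind, was at 19.3, 26.7 and 19.3 TPM in control and at 9.39, 11.6 and 5.77 TPM in knockdown replicates 1, 2 and 3. All knockdown values lay below all control values, at a mean of 8.91 ± 2.93 against 21.8 ± 4.28 TPM (SD, n = 3 each), a ratio of 0.409. The log2 fold change was −1.23 (SE 0.27, limma adjusted p = 0.0813), the lowest adjusted p in these families after ITGB2, and lay between −1.43 and −0.98 with single libraries left out. Its exons were 65.7% GC. LAMA5 overlaps ADRM1, a proteasome ubiquitin receptor gene, on the other strand, which was at means of 182 and 116 TPM, so reads from the overlap cannot be told apart either.

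LAMA1, the α chain of laminin α1β1γ1, was at 8.72, 8.26 and 14.6 TPM in control and at 14.0, 12.8 and 14.1 TPM in knockdown libraries. Control replicate 3 lay above all knockdown values, so the groups overlapped, with a log2 fold change of 0.38 (SE 0.24, limma adjusted p = 0.461). The α chains therefore stood in a different order in the groups. LAMA5 made up 66.2, 74.8 and 55.7% of the summed laminin α TPM in control and 37.7, 45.3 and 27.9% in knockdown libraries, and LAMA1 31.7 ± 9.60% and 58.1 ± 9.26% (SD, n = 3 each). The ratio of LAMA5 to LAMA1 was 2.21, 3.23 and 1.32 in control and 0.671, 0.905 and 0.409 in knockdown libraries. It was above 1 in each control library and below 1 in each knockdown library. Every control LAMA5 value was above every control LAMA1 value, and every knockdown LAMA5 value below every knockdown LAMA1 value. The ratio, chosen after the values were seen, thus had to separate, and no test of it is given. LAMA2, LAMA3 and LAMA4 were not tested, at means of 0.347, 0.677 and 0.00333 TPM.

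**Figure D3:**
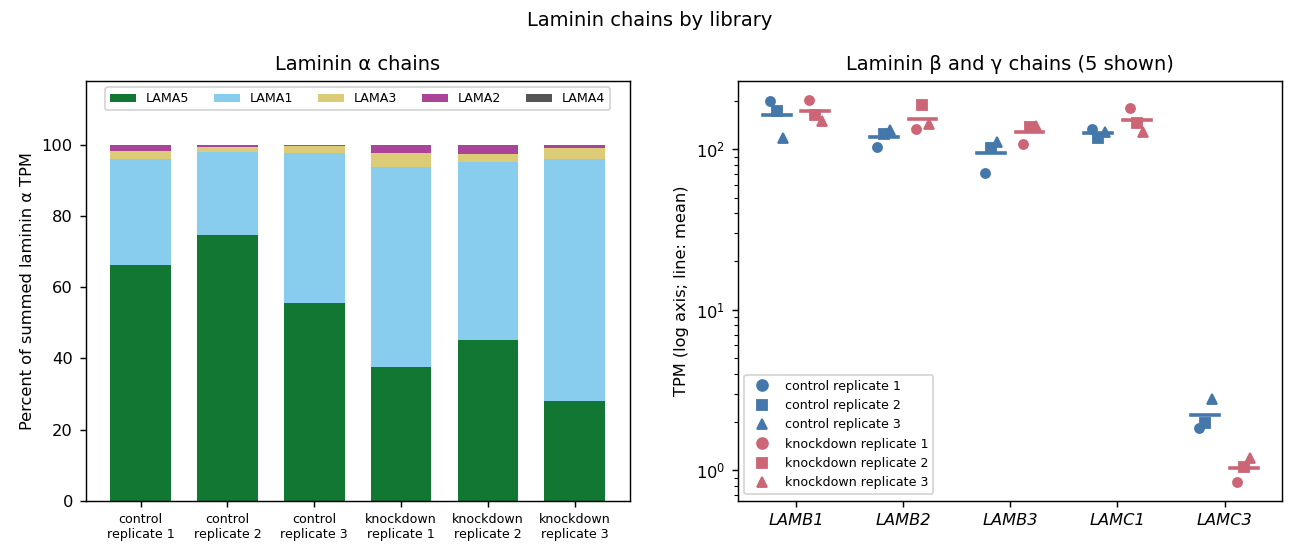
Left, percent of the summed laminin α TPM held by each α chain in each of the 6 libraries. Right, TPM on a log axis of 5 β and γ chains, with points for libraries and lines for the mean of 3. LAMA5 held 55.7 to 74.8% in control and 27.9 to 45.3% in knockdown libraries, and on the right LAMB2 and LAMC3 separate in opposite directions.

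The β and γ chains were more abundant than the α chains, with summed β chains at 378 ± 19.7 and 455 ± 30.7 TPM and α chains at 33.2 ± 3.51 and 23.7 ± 2.65 TPM (control and knockdown, SD, n = 3 each). Both sums were without overlap, β higher (exact permutation p = 0.1) and α lower in knockdown cells. The lower α sum repeats the change of LAMA5, at means of 21.8 and 8.91 TPM, so no test of it is given. The mean of LAMA1 went the other way, at 10.5 and 13.6 TPM, and those of the other α chains were not lower. LAMB1 and LAMC1, the β1 and γ1 chains of most laminins, overlapped between groups, at means of 164 and 172 TPM and of 127 and 151 TPM. LAMB2, the β2 chain, was at 103, 124 and 132 TPM in control and at 133, 187 and 144 TPM in knockdown libraries, all above with the nearest values 132 and 133 TPM, and the log2 fold change was 0.36 (SE 0.18, limma adjusted p = 0.364).

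LAMB3, the β3 chain of epithelial laminin, was at 70.9, 102 and 110.7 TPM in control and at 107, 138 and 139 TPM in knockdown libraries. Knockdown replicate 1 lay below control replicate 3, and the log2 fold change was 0.45 (SE 0.21, limma adjusted p = 0.325, 0.027 with the GC trend removed and 0.658 at most with a library left out). LAMA3, the α chain that LAMB3 assembles with, was at 0.50 to 0.98 TPM in all libraries. LAMC3, a rare γ chain, was at 1.84, 1.97 and 2.80 TPM in control and at 0.85, 1.05 and 1.20 TPM in knockdown libraries, all lower, with a log2 fold change of −0.65 (SE 0.27, limma adjusted p = 0.279).

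Of 14 laminin trimers considered, 5 had all chains tested. In laminins α5β1γ1 and α5β2γ1 LAMA5 was the lowest chain, at 21.8 against 8.91 TPM. For laminin α5β2γ3 it was LAMC3, at 2.20 against 1.03 TPM. All 3 were lower in each knockdown library, but these values repeat those of LAMA5 and LAMC3, so no test of them is given. In laminins α1β1γ1 and α1β2γ1 the lowest chain was LAMA1, at 10.5 against 13.6 TPM, with overlap (exact permutation p = 0.4). Of the 8 tested laminins 3 had an unadjusted p under 0.05, beside 16.8% of all genes, and 0 passed the limma test after adjustment.

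Among the receptors, ITGA3 and ITGB1, the subunits of the laminin receptor α3β1, were the most abundant. ITGA3 was at 286, 380 and 279 TPM in control and at 289, 359 and 368 TPM in knockdown libraries, and ITGB1 was at 389, 269 and 204 TPM and at 352, 299 and 252 TPM. Both overlapped, with log2 fold changes of 0.11 (SE 0.17) and 0.11 (SE 0.24). ITGA6, the α subunit of the laminin receptors α6β1 and α6β4, was at 70.7 to 122 TPM and overlapped with a log2 fold change of 0.00. ITGB4, the hemidesmosome subunit that pairs with α6, was at 22.2, 31.3 and 13.9 TPM in control and at 13.5, 22.4 and 15.5 TPM in knockdown libraries, also with overlap. Thus the groups separated for the ligand LAMA5 and overlapped for the receptor subunits ITGA3, ITGA6, ITGB1 and ITGB4.

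The α4 and α5 subunits, both of which bind fibronectin with β1, lay on opposite sides. ITGA4 was at 32.6, 36.0 and 32.8 TPM in control and at 24.1, 23.4 and 19.99 TPM in knockdown libraries. All knockdown values were lower, and the log2 fold change was −0.57 (SE 0.17, limma adjusted p = 0.151). ITGA5 was at 20.04, 27.4 and 25.1 TPM in control and at 31.2, 33.1 and 39.3 TPM in knockdown libraries, all higher, with a log2 fold change of 0.50 (SE 0.19, limma adjusted p = 0.239, 0.0318 with the GC trend removed and 0.539 at most with a library left out). The ratio of ITGA5 to ITGA4 was 0.614, 0.760 and 0.765 in control and 1.29, 1.41 and 1.96 in knockdown libraries, so ITGA4 was the more abundant in each control library and ITGA5 in each knockdown library (mean 0.713 ± 0.0856 and 1.56 ± 0.358, SD, n = 3 each). As both genes separate in opposite directions, their ratio had to separate, and no test of it is given. The ITGA5 window shown above held an AP-1 element and 1 GC box, and the ITGA4 window held neither. Whether this bears on their levels was not tested. The exons of ITGA4 were 37.7% GC and those of ITGA5 55.6%.

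The collagen-binding α subunits were low. ITGA1 was at 6.65, 6.42 and 1.11 TPM in control and at 8.07, 3.92 and 6.83 TPM in knockdown libraries, and ITGA2 at 4.19, 3.40 and 0.74 TPM and at 3.48, 2.91 and 2.56 TPM. In both, control replicate 3 stood far below the other libraries and the groups overlapped. ITGA10 was at 1.24, 1.69 and 1.91 TPM in control and at 1.96, 1.94 and 1.94 TPM in knockdown libraries. All knockdown values lay above the highest control value, but the nearest were 1.91 and 1.94 TPM. The log2 fold change was 0.18 (SE 0.25, limma adjusted p = 0.76). ITGA11 was not tested, at 0 to 0.9 TPM. ITGAV, the α subunit shared by the RGD-binding αV receptors, was at 53.1, 33.2 and 29.0 TPM in control and at 34.0, 30.6 and 27.5 TPM in knockdown libraries, with overlap. Its partner ITGB5 was at 55.9, 98.1 and 60.9 TPM and at 42.7, 57.6 and 55.7 TPM, with overlap in control replicate 1, and ITGB3 at 3.29, 3.56 and 0.97 TPM and at 1.03, 1.09 and 0.98 TPM, where control replicate 3 was as low as the knockdown libraries. ITGAE was at 20.5 to 29.4 TPM although its partner ITGB7 was at most at 0.89 TPM.

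Paired by known heterodimers and read at the lower subunit, 11 of 24 receptors had both subunits tested, 8 of 12 with β1 and 3 of 5 with αV. The lower-subunit level was without overlap for 3 of the 11, beside 23.3% of all tested genes, though receptors that share a subunit are not separate items. α4β1 was at 33.8 ± 1.92 TPM in control and 22.5 ± 2.21 TPM in knockdown cells (SD, n = 3 each). α5β1 was at 24.2 ± 3.74 and 34.5 ± 4.23 TPM, and α10β1 at 1.61 ± 0.341 and 1.95 ± 0.0115 TPM (SD, n = 3 each). For α10β1 the nearest values of the groups were 1.91 and 1.94 TPM. In all 3 the lower subunit was the α subunit, so these values repeat those of ITGA4, ITGA5 and ITGA10, and no test of them is given. The lower-subunit level of α3β1 was 253 ± 43.6 and 280 ± 24.6 TPM, of α6β1 94.8 ± 25.8 and 93.3 ± 13.6 TPM, and of αVβ5 38.4 ± 12.9 and 30.7 ± 3.23 TPM (SD, n = 3 each), all with overlap. Of the 8 α subunits tested with β1, ITGA3 exceeded ITGB1 in 4 of 6 libraries, and the other α subunits were below ITGB1 in all 6.

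**Figure D4:**
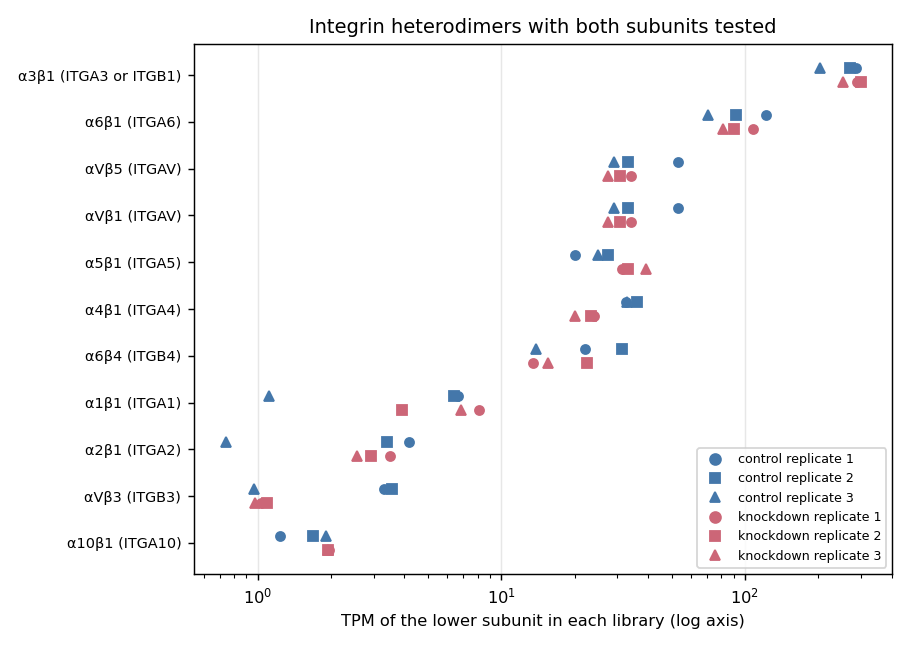
TPM on a log axis of the lower subunit, named in brackets, of the 11 integrin heterodimers with both subunits tested, for 3 control libraries (blue) and 3 knockdown libraries (red). The colours separate for α5β1, at means of 24.2 and 34.5 TPM, and for α4β1, at 33.8 and 22.5 TPM. They separate barely for α10β1, at 1.61 and 1.95 TPM with nearest values of 1.91 and 1.94 TPM.

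ITGB2, the β2 subunit of leukocyte integrins (ENSG00000160255.19, chromosome 21, minus strand, 44885953 to 44931989 on hg38), rose in knockdown cells. It was at 3.80, 3.76 and 2.40 TPM in control and at 9.22, 12.1 and 14.2 TPM in knockdown replicates 1, 2 and 3. All knockdown values were above all control values, at a mean of 11.9 ± 2.51 against 3.32 ± 0.797 TPM (SD, n = 3 each), 3.57-fold higher. The log2 fold change was 1.57 (SE 0.25, limma adjusted p = 0.0343). The call was lost, at the same direction, without control replicate 2 (log2 1.65, limma adjusted p = 0.141), without knockdown replicate 1 (1.73, 0.101), without knockdown replicate 2 (1.55, 0.177), without knockdown replicate 3 (1.44, 0.179), and with no filter on low genes (1.57, 0.116). Of the summed integrin β TPM, ITGB2 held 0.858 ± 0.0619% in control and 3.16 ± 1.00% in knockdown cells (SD, n = 3 each). As the β sums overlapped, this share repeats the change of ITGB2, and no test of it is given. It lies 473 kb from COL18A1, which was lower.

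The 4 α subunits that pair with β2 were at or near 0. ITGAL was at 0.03 TPM in control replicate 3 and 0 in the other libraries, ITGAD was at 0 in all, ITGAX was at most at 0.13 TPM, and ITGAM was at 0, 0.66 and 1.09 TPM in control and at 0.03, 0.06 and 0.03 TPM in knockdown libraries. No β2 heterodimer therefore had both subunits tested, and the lower subunit of αMβ2 was at 0.04 TPM in the mean of the knockdown libraries. Of the 5 leukocyte markers, ITGB2 included, PTPRC and CD3E were at 0 in all libraries. CD68, a lysosomal protein of macrophages and of other cells, was at 66.8, 53.7 and 28.4 TPM in control and at 126, 129 and 107 TPM in knockdown libraries, all higher, with a log2 fold change of 1.34 (SE 0.30, limma adjusted p = 0.0816). The summed leukocyte markers were at 30.8 to 70.6 TPM in control and at 120.7 to 141 TPM in knockdown libraries, and their part in the result was not tested. The antisense RNA ITGB2-AS1 was at means of 0.217 and 1.74 TPM, and without strand its reads cannot be told apart from those of ITGB2 where the genes overlap.

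**Figure D5:**
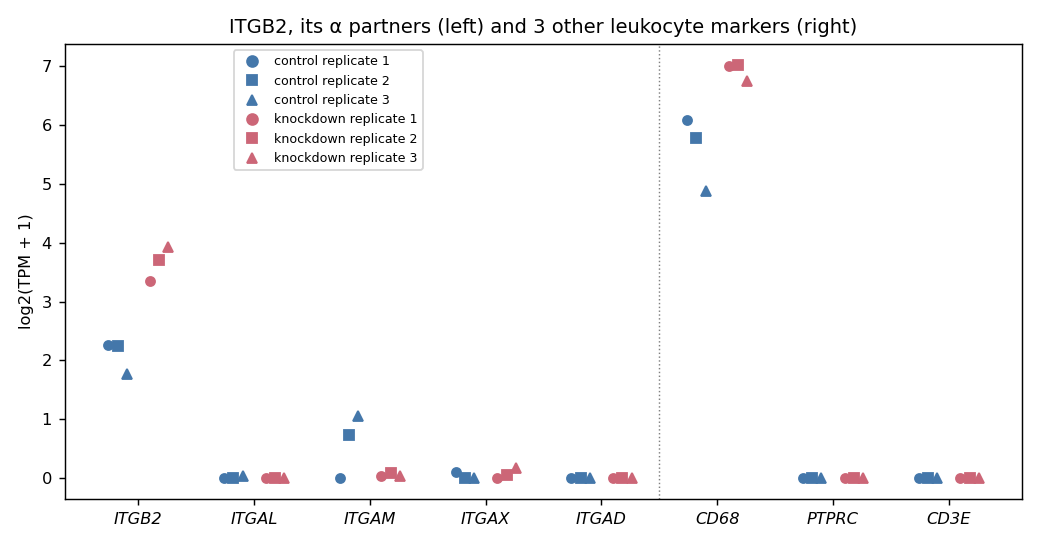
Level as log2(TPM + 1) in each library of ITGB2 and the α subunits it pairs with (left of the dotted line) and of 3 other leukocyte markers (right), control in blue and knockdown in red. ITGB2 and CD68 were higher in all 3 knockdown libraries, while ITGAL, ITGAX and ITGAD stayed at or near 0 and ITGAM was above 0.1 TPM in control replicates 2 and 3 alone.

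Genes that work with these families were read from the same fit. In all tested genes the unadjusted p was under 0.05 for 16.8% and the groups were without overlap for 23.3%, and the counts of each list are to be read beside these shares. Of 12 basement membrane partners 7 were tested and 0 passed the limma test, with 3 at an unadjusted p under 0.05 and a median log2 fold change of −0.30. The collagen-binding glycoprotein SPARC was at 1465, 1513 and 1512 TPM in control and at 1141, 1260 and 1260 TPM in knockdown libraries, and FBLN1 (log2 −0.55) and the laminin-binding netrin NTN4 (log2 −0.44) were also lower in every knockdown library. Of 26 other integrin ligands 13 were tested, with a median of 0.08, and THBS1, a matricellular ligand of several β1 and αV integrins, fell. It was at 184, 169 and 157 TPM in control and at 79.9, 76.0 and 59.4 TPM in knockdown libraries, without overlap, with a log2 fold change of −1.24 (SE 0.17, limma adjusted p = 0.0253). The call held in 15 of 20 fits and was lost without control replicate 2 (adjusted p = 0.13), without knockdown replicate 1, 2 or 3 (0.0865, 0.138 and 0.126) and with no filter (0.0708). LTBP1, which stores latent TGF-β, was lower in every knockdown library (log2 −0.98, limma adjusted p = 0.231). SPP1 and FBN1, ligands of αV integrins, were higher in every knockdown library with log2 fold changes of 0.69 and 0.81 but did not pass the test.

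Of 16 other receptors of collagen and laminin 12 were tested, with a median of −0.20, and the heparan sulfate proteoglycan SDC4, a co-receptor of integrins at focal adhesions, fell. It was at 51.6, 69.9 and 95.7 TPM in control and at 26.3, 28.3 and 27.6 TPM in knockdown libraries, without overlap, with a log2 fold change of −1.33 (SE 0.23, limma adjusted p = 0.0447). The call held in 12 of 20 fits and was lost without control replicate 2 (adjusted p = 0.174), without knockdown replicate 1, 2 or 3 (0.16, 0.188 and 0.18), with no filter (0.12), with median-of-ratios scaling (0.0754), with quantile normalization (0.0539) and with eBayes without trend (0.0702). The collagen receptor kinase DDR2 was at 0.37, 0.27 and 0.60 TPM in control and at 1.05, 1.47 and 2.47 TPM in knockdown libraries (log2 0.89, limma adjusted p = 0.225). The hyaluronan receptor CD44, at 507 to 662 TPM in control and 672 to 755 TPM in knockdown libraries, was without overlap too, with a log2 fold change of 0.31 (limma adjusted p = 0.304). Of 29 integrin adaptors and regulators 28 were matched by name, 25 were tested and 0 passed the limma test, with 2 (8%) at an unadjusted p under 0.05 and a median of −0.06. The adaptor BCAR1 was at 109, 165 and 233 TPM in control and at 88.3, 112 and 119 TPM in knockdown libraries, with overlap (log2 −0.61). The groups were without overlap for 4 of the 25 (16%), below the share of all genes. Among these the adaptor kinase ILK (log2 −0.41), the focal adhesion kinase PTK2 (−0.38) and SRC (−0.32) were lower in every knockdown library, and the tetraspanin CD9 (0.43) was higher, none past the test.

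Of 21 genes for collagen folding, secretion and processing 16 were tested and 0 passed the limma test, with 1 (6.25%) at an unadjusted p under 0.05 and a median of 0.04. That 1 was CRTAP, a partner of collagen prolyl 3-hydroxylase, at 110, 109 and 77.5 TPM in control and at 175, 183 and 167 TPM in knockdown libraries, all higher, with a log2 fold change of 0.83 (SE 0.18, limma adjusted p = 0.0739). The collagen prolyl isomerase FKBP14 was at 14.4, 12.3 and 8.55 TPM in control and at 17.95, 15.1 and 14.0 TPM in knockdown libraries, with overlap (log2 0.41). Of 22 matrix metalloproteinases and inhibitors 9 were tested and 0 passed, with 2 at an unadjusted p under 0.05 and a median of −0.12. The inhibitor TIMP2 was at 187, 188 and 113 TPM in control and at 264, 257 and 257 TPM in knockdown libraries (log2 0.71, limma adjusted p = 0.152), and the membrane-type protease MMP24 was at 11.0, 14.6 and 23.3 TPM and at 8.01, 9.42 and 9.72 TPM (log2 −0.72, limma adjusted p = 0.239). In both genes the groups did not overlap.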

How the data were processed

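RNA–Seq was performed on poly-A RNA of 6 SK-Hep1 libraries, 3 control and 3 RAB30-DT knockdown, grouped by their titles. Per library, the authors deposited a TPM value for each gene, with 2 decimals. Their methods name fastp, STAR, samtools and RSEM, whereas the submitters' processing notes name fastp, HISAT2 (2.0.5) and hg38. All 62700 versioned gene identifiers were found in GENCODE release 44, used for names, positions, exon GC content and overlaps. TPM keep no read number, so depth is unknown.

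Values were analysed as log2(TPM + 1), with a pseudocount of 1, keeping the 14020 genes that averaged 1 TPM or more over the 6 libraries. Groups were compared with limma 3.58.1 (lmFit, eBayes with trend, 2-sided, no block) in R 4.3.3, with Benjamini–Hochberg adjustment over all these genes at 0.05. Sums, shares, ratios and lower subunits were computed in Python 3.11.15 with exact permutation tests over all 20 splits. Spearman's rho was computed with scipy 1.17.1. The GC trend was removed by loess (span 0.3) per library. The fit was also run on simulated data with errors drawn independently for each gene and library. Those data held no GC trend of a library, so they cannot show how the fit handles such trends. Promoter windows came from RefSeq.

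The genes and lists were chosen with earlier results of these data known. Named were RAB30-DT, called genes, the 5 largest changes in each direction among genes without overlap, the 3 most abundant genes of each family, subunits and chains of tested assemblies, and called or largest changes in the lists. Some genes are counted but not reported here by name. Other genes were named after their values were seen. Ratios and shares were compared without adjustment, since no exact test of 3 against 3 can go below 0.1. The alternatives were other pseudocounts, filters and scalings, quantile normalization, eBayes without trend or robust, arrayWeights, a replicate block, GC removal and each library left out.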

Additional observations from a re-analysis of the deposited data

How the results depend on the processing

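The 146 genes called overall became 13 with no filter, 3218 with arrayWeights, 861 with a replicate block, 1191 with the GC trend removed, 1028 with both block and GC removal, and 12 to 489 with single libraries left out, namely 489 without control replicate 1, 12 without control replicate 2, and 18, 15 and 16 without knockdown replicates 1, 2 and 3. Of these families, the 1 gene called became 0 with no filter (limma, with 9 at an unadjusted p under 0.05), 12 with arrayWeights, 3 with the block (COL18A1, LAMA5 and ITGB2), 5 with the GC trend removed (COL18A1, LAMB3, ITGA5 and ITGB2 among them), 5 with block and GC removal (COL18A1, COL12A1, LAMB3, LAMA5 and ITGB2), and 0 to 2 with single libraries left out, the 2 being COL18A1 and ITGB2 without control replicate 1. The arrayWeights fit gave control replicate 2 and knockdown replicate 2 weights of 3.00 and 4.39, and the other libraries 0.316 to 0.948. The deviations of same-numbered libraries correlated at 0.41, 0.0359 and 0.279, and at 0.187, 0.0159 and 0.118 with the GC trend removed. The labels do not say whether a shared replicate number marks a pairing, so it was used as a block only in alternative fits. The split of calls, 52 higher and 94 lower, was 68 and 68 with median-of-ratios scaling and 78 and 83 with quantile normalization. The median of the collagens was −0.34 at a mean of at least 5 TPM, that of the laminins 0.40 with quantile normalization, and that of the integrin α subunits −0.19 to 0.21 and of the integrin β subunits −0.51 to −0.07 with single libraries left out. The summed TPM of each family moved by less than the spread between libraries with median-of-ratios scaling and with single libraries left out. Read as the geometric mean of both subunits, the log2 ratio was −0.25 for α4β1 and 0.31 for α5β1, in place of −0.59 and 0.52. Genes with small fold changes changed sign. COL6A2 was 0.080 with the GC trend removed, with and without block. COL17A1 was 0.010 with median-of-ratios scaling, 0.098 with arrayWeights and 0.052 with the GC trend removed, with and without block. COL6A1 was −0.0082 with a pseudocount of 5, −0.030 with quantile normalization and −0.063 with arrayWeights. ITGA6 was −0.015 with arrayWeights and −0.016 with the GC trend removed, with and without block. With arrayWeights, COL27A1 was 0.058, COL4A5 −0.26, COL11A2 0.26, COL1A1 −0.092, LAMB1 −0.032, ITGA3 −0.042, ITGA1 −0.22 and ITGA2 −0.071. With single libraries left out, ranges that crossed 0 were −0.23 to 0.13 for COL6A2, −0.35 to 0.20 for COL6A1, −0.10 to 0.54 for COL16A1, −0.33 to 0.44 for COL4A5, −0.17 to 0.13 for COL17A1, −0.41 to 0.21 for COL11A2, −0.013 to 0.54 for COL1A1, −0.13 to 0.25 for LAMB1, −0.19 to 0.20 for ITGA6, −0.10 to 0.83 for ITGA1, −0.27 to 0.52 for ITGA2 and −0.12 to 0.35 for ITGB1. What causes these differences between settings was not tested. With 3 libraries per group, unknown depth, and values without strand, genes near 1 TPM and differences within the spread between libraries cannot be resolved.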

Other observations

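The 43 genes below the filter had means of at most 0.677 TPM, and 8 of them were at 0 in all 6 libraries: COL9A1, COL14A1, COL20A1, COL21A1, COL22A1, COL23A1, ITGA8 and ITGAD. Of the 43, COL4A4, ITGA7 and ITGAM reached 1 TPM in some library. COL4A4 was at 1.05, 0.99 and 0.07 TPM in control and at 0.06, 0.12 and 0.05 TPM in knockdown replicates 1, 2 and 3, so control replicates 1 and 2 stood apart from the other 4 libraries. ITGA11 was at 0.16, 0 and 0.9 TPM in control and at 0.01, 0.04 and 0.02 TPM in knockdown libraries. COL26A1 and COL2A1 were above 0 in control replicate 3 alone, at 0.49 and 0.33 TPM. These genes were chosen after their values were seen, and none was tested.

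Several of the genes are neighbours on hg38. ITGA1 and ITGA2 lie 30.1 kb apart on chromosome 5, with log2 fold changes of 0.51 and 0.22. COL6A1 and COL6A2 lie 93.1 kb apart on chromosome 21, with 0.02 and −0.08. On the same chromosome, ITGB2 and COL18A1 lie on opposite strands with log2 fold changes of 1.57 and −1.08.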
